A study of Mus musculus with 6 samples.

Results

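The genes described here are the heat shock proteins and their co-chaperones, chosen by symbol from the protein-coding genes of GENCODE M21. The symbols are those of the Hspa, Hspb, Hsp90, Dnaja, Dnajb, Dnajc and Bag families, with Hspd1, Hspe1, Hsph1, Hsf1 and Hsf2, and without Hspa5 and Dnajb9. The rule used names and no measured value, and it found 78 of the 21918 protein-coding genes, or of the 54886 genes of all kinds listed in each file. RNA was sequenced from GC-2spd cells, an immortalised line derived from mouse spermatocytes, with BALB/c given as the strain background of every sample. The control group received normal medium with PM2.5 at 0 μg/mL, and the PM2.5 group received fine particulate matter at 100 μg/mL for 48 h, with 3 libraries in each group. All 6 libraries came from this 1 line, and the labels do not say whether they came from separate cultures. The p-values therefore measure the spread between these libraries, which may be technical. The comparison asks whether chaperone transcripts differed after PM2.5 exposure.

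HSP70 proteins bind unfolded stretches of other proteins and release them in cycles of ATP use. J-domain proteins (Dnaj genes) deliver substrates and start the ATP step, while HSP110 and BAG proteins exchange the nucleotide. HSP90 matures kinases and steroid receptors and also holds the aryl hydrocarbon receptor, a sensor of particle-borne polycyclic compounds, in its ligand-ready form. In mitochondria the chaperonin HSP60 (Hspd1) and its lid HSP10 (Hspe1) fold imported proteins, and small heat shock proteins hold unfolded proteins without ATP. The transcription factor HSF1 switches on the inducible members through heat shock elements, which are inverted repeats of the unit nGAAn in their promoters. Male germ cells are known for members of their own, such as Hspa2 and Hspa1l.

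Levels are given in FPKM, the fragments on a gene divided by the length of its exons and by the scaled depth of the library. Genes can thus be compared with each other within a library. The recovered depth was 16203632 to 17997164 reads per library, and 75 of the 78 genes came out in whole reads, the exceptions being Dnajc4, Dnajc18 and Hspa12a. The ratio of scaled to recovered depth was 0.801 for control replicate 2, while every other library had a ratio between 1.03 and 1.05. Compared with scaling by total reads, FPKM therefore raises control replicate 2 against the other libraries. The line's label was checked with marker genes. Of 14 germ cell markers, 0 reached a mean of 1 FPKM, the sum of all 14 was between 0.306 and 2.73 FPKM per library, and Dazl, Spo11, Pgk2 and Piwil1 were at 0 reads in every library. Of 7 fibroblast or mesenchymal markers, 6 passed the filter: Sparc at 351 to 621 FPKM, Vim at 255 to 698, Col1a1 at 193 to 452, Col1a2 at 115 to 202, Fn1 at 39.8 to 192 and Col3a1 at 7.52 to 17.8. Thy1 had 1 read in control replicate 2 and 0 in the other libraries. Of 7 Sertoli, 6 Leydig and 5 macrophage markers, 1 of each passed the filter. These were Gata4 at 11.1 to 22.3 FPKM, Star at 1.58 to 2.49 and Cd68 at 0.750 to 15.5, highest in control replicate 2. A spermatocyte identity was thus not seen in the germ cell markers, which do not decide the origin of the line. Control replicate 2 stood apart from the other control libraries, with 14.5% of its reads on mitochondrial genes against 1.65% to 1.95% in the other 5, and with Pearson r over the genes tested of 0.742 and 0.745 to control replicates 1 and 3, which had 0.992 with each other. PM2.5 replicate 3 had 0.950 and 0.958 with PM2.5 replicates 1 and 2, which had 0.991 with each other. Most results are therefore given with and without control replicate 2. The count of chaperone genes called is also given without PM2.5 replicate 3.

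No chaperone gene passed the test of PM2.5 against control, with control replicate 2 or without it. Of the 78 genes, 67 had a mean of at least 1 FPKM and were tested among 11884 genes with limma on log2(FPKM + 1), with Benjamini-Hochberg adjustment over all of them. In all 6 libraries 0 of the 67 were called at an adjusted p under 0.05, against 11 of all genes tested (0.0926%). The smallest adjusted p among them was 0.875, and 0 had an unadjusted p under 0.05, where 3.8% of all genes did. Without control replicate 2 again 0 were called, against 118 of all genes (0.993%). Voom on the recovered reads tested 64 of the 67 and called 0 of them in both fits. In all 6 libraries voom called 0 of all 11207 genes it tested. By limma without control replicate 2, 9 of the 67 genes (13.4%) had an unadjusted p under 0.05, against 15.9% of all genes. In 8 of these the PM2.5 group was higher (8.23% of all genes), namely Dnajc7, Hspd1, Dnaja1, Hspa9, Dnajb11, Hspa4, Dnajc4 and Hsf1, and in 1, Dnajc12, it was lower (7.63% of all genes). The smallest adjusted p was 0.128, for Dnajc7. Since each value is a share of the RNA of a bulk sample, fewer cells of a type and less RNA per cell cannot be told apart.

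The intervals bounded the size of any difference more closely without control replicate 2. The unadjusted 95% interval of the log2 fold change lay within -1 and 1 for 41 of the 67 genes in all 6 libraries (47.7% of all genes), and for 66 of 67 without control replicate 2 (86.2% of all genes). The exception was Bag3, with an interval of -0.53 to 1.31. In all 6 libraries 1 gene, Hspd1, had an absolute log2 fold change above 1, 1 of 67 against 3.99% of all genes, and 0 of 67 had one without control replicate 2 (2.06% of all genes). Over the 67 genes the median log2 fold change was 0.081 in all 6 libraries and 0.047 without control replicate 2, beside 0.020 and -0.011 over all genes tested. In both fits 41 of the 67 genes had a higher mean in the PM2.5 group, where 51.9% and 48.0% of all genes did. Under total-read scaling of all 6 libraries, 49 of 67 were higher and the median of the 67 was 0.20, while the median of all genes moved to 0.13.

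**Figure D1:**
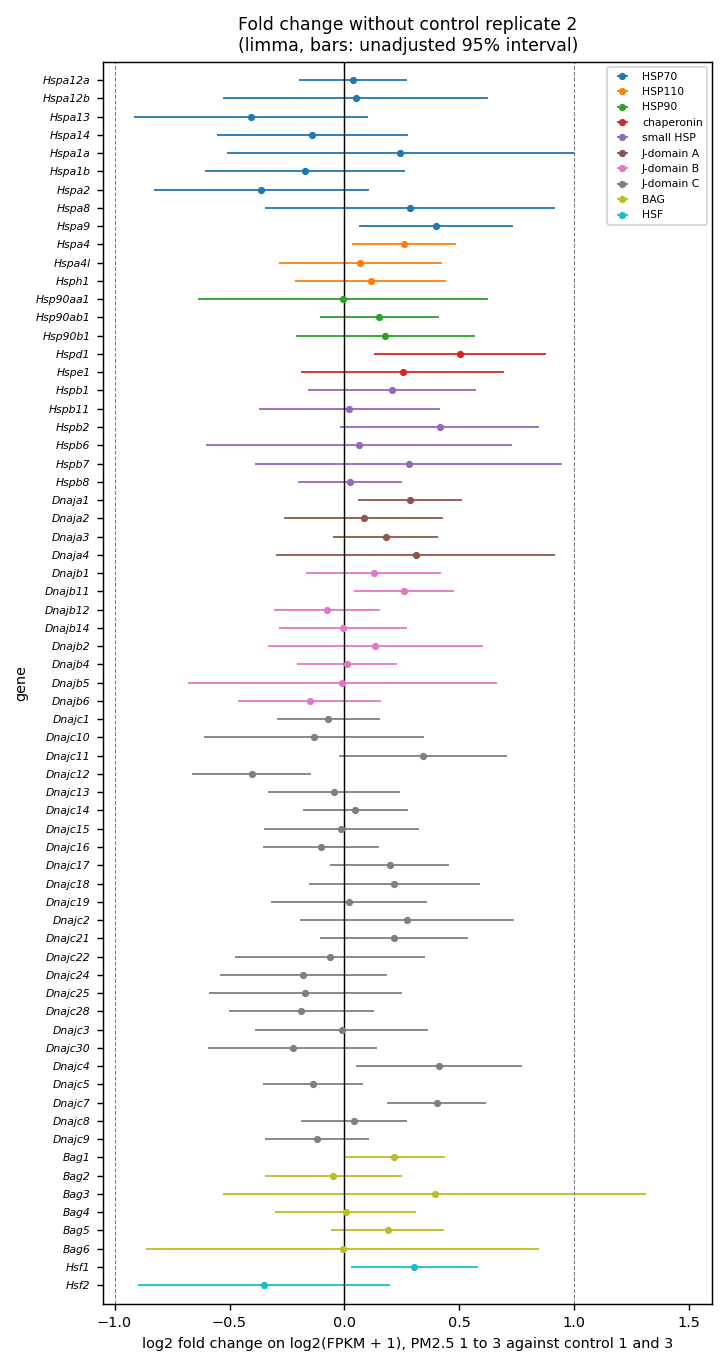
Log2 fold change on log2(FPKM + 1), PM2.5 replicates 1 to 3 against control replicates 1 and 3, for the 67 chaperone genes tested, coloured by role. Points are limma estimates and bars unadjusted 95% intervals. All intervals but that of Bag3 end within -1 and 1, marked by dashed lines.

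The groups of values did not overlap for 11 of the 67 genes in all 6 libraries, 16.4% against 15.2% of all genes tested. In 8 of the 67 the PM2.5 values were higher (8.35% of all genes), namely in Hspa4, Hspa9, Hsp90ab1, Dnaja1, Dnaja3, Dnajb11, Dnajc21 and Hspd1. Dnajb12, Dnajc9 and Dnajc28 were the 3 with lower values (6.85% of all genes). The gap was narrow for Dnajb12, at 19.69 FPKM in PM2.5 replicate 2 and 19.72 in control replicate 3. It was also narrow for Dnajc28, at 1.146 in PM2.5 replicate 1 and 1.151 in control replicate 3. These counts rest on the deposited FPKM scaling and were not repeated with total-read scaling. Without control replicate 2 the count was 27 of 67, against 37.3% of all genes, with 18 higher (17.7%) and 9 lower (19.6%). Of the genes outside the filter, 11 were not tested, and 3 of these (Dnajb8, Dnajc5b and Dnajc5g) had 0 reads in every library, which allows up to 3 reads each.

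Promoter stretches are shown here because they carry heat shock elements of genes whose levels are described afterwards. Promoter windows of 250 bases before to 50 bases after the start were taken from RefSeq on GRCm38.p6 for 62 of the 78 genes, and both strands were searched. An element of 2 units was written GAANNTTC or TTCNNGAA, and one of 3 units GAANNTTCNNGAA or TTCNNGAANNTTC, which contains the shorter ones. Capitals mark the matches. Starts are those of RefSeq, at 55087932 for Hspd1 and 55088148 for Hspe1, while in GENCODE the stretch of Hspe1 lies within Hspd1. The stretches of Hspe1, Dnajb6, Hsph1 and Dnaja1 were cut to 30 bases because their matches touch a GENCODE exon.
Hspe1, between the starts of Hspd1 and Hspe1, chr1:55088053-55088082, plus strand: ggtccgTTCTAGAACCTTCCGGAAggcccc
Dnajb6, chr5:29735843-29735872, plus strand: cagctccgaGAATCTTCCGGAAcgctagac
Hsph1, chr5:149636351-149636380, minus strand: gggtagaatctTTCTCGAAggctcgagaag
Dnaja1, chr4:40722333-40722362, plus strand: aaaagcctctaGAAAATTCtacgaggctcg
Hspb1, chr5:135887762-135887869, plus strand: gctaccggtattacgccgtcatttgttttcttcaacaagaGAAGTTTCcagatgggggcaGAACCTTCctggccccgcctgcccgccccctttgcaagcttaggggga
Hspa1a, chr17:34972213-34972300, minus strand: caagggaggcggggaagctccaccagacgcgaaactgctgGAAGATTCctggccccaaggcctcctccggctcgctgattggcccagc
Hspa1b, chr17:34959295-34959382, minus strand: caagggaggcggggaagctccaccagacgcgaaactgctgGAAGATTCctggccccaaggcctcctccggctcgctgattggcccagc

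Elements of 3 units stood in 6 of the 80 windows of the chaperone genes (7.5%), those of Hspd1, Hspe1, Dnajb6 and Hsph1, and in 0.603% of all 32851 windows. These 6 windows held 3 separate places, since Hspd1 and Hspe1 share 1 and Dnajb6 and Hsph1 each have overlapping windows. Counted by gene, the element stood in 6.45% of the matched members and 0.662% of all matched genes. That of Hsph1 lies after the start and is not printed. Those of 2 units stood in 19 windows (23.8%) against 15.1% of all windows. Counted by gene, they stood in 27.4% of the matched members and 17% of all matched genes. In a list of 16 heat-inducible members, 13 genes had a window, and 11 of their 19 windows (57.9%) held an element of 2 units, while 8 of 61 windows (13.1%) of the other members did. That list was made of genes known to be raised by HSF1, so its larger share is no independent result. Some of these windows overlap and share a match. A match describes these letters and does not show that a factor was bound. The 250 bases before the start differ at 3 positions between Hspa1a and Hspa1b, so they are 98.8% identical, and the stretch printed is the same in both.

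The heat shock factors were present at low levels, and neither was called. Hsf1, which lies on chromosome 15 from 76477422 to 76501913 (GRCm38), had 7.97, 33.6 and 7.87 FPKM in control replicates 1, 2 and 3, and 10.8, 10.3 and 8.98 FPKM in PM2.5 replicates 1, 2 and 3. Control replicate 2 was the highest of the 6, and without it every PM2.5 library was above both control libraries. For Hsf1 the log2 fold change was -0.35 (SE 0.56, limma adjusted p 0.879) with control replicate 2 and 0.30 (SE 0.11, adjusted p 0.286) without it, so its sign turned with that library. Hsf2, a factor active in development and in the testis, had 8.01, 8.65 and 7.06 FPKM in the control libraries and 4.49, 5.32 and 7.64 FPKM in the PM2.5 libraries. PM2.5 replicates 1 and 2 were the lowest, and PM2.5 replicate 3 was within the range of the controls. For Hsf2 it was -0.41 (SE 0.23, adjusted p 0.875) in all 6 libraries and -0.35 (SE 0.21, adjusted p 0.485) without control replicate 2.

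The 16 heat-inducible members, the genes that HSF1 is known to raise under heat or misfolded protein, all passed the filter, and 0 of them were called in either fit. The list includes Hspa8 and Hsp90ab1, described below as constitutive forms. The mean was higher in the PM2.5 group for 14 of the 16 in both fits, beside 51.9% and 48.0% of all genes. Their median log2 fold change was 0.27 in all 6 libraries and 0.18 without control replicate 2, beside 0.020 and -0.011 over all genes. The count was 12 to 15 of 16 across the other fits of all 6 libraries that kept all 16 genes, and 13 to 15 of 16 in those without control replicate 2. These fits reuse the same libraries, and the genes are no independent replicates. Leaving out control replicate 2, 3 of the 16 had an unadjusted p under 0.05 (Hspd1, Hspa4 and Dnaja1), beside 15.9% of all genes. In the same fit the groups did not overlap for 5 genes with higher values (Hspd1, Hspe1, Hspa4, Hsp90ab1 and Dnaja1) and for 1 with lower values (Hspa1b), beside 17.7% and 19.6% of all genes.

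**Figure D2:**
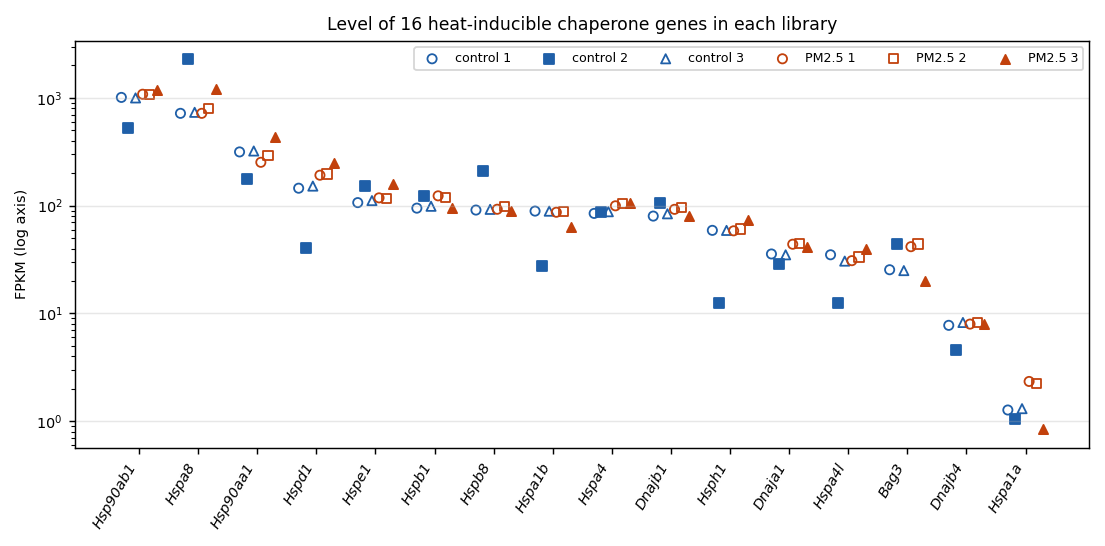
FPKM on a log axis of the 16 heat-inducible members in each of the 6 libraries, controls in blue and PM2.5 libraries in orange, with control replicate 2 and PM2.5 replicate 3 as filled symbols. Control replicates 1 and 3 lie close together, while control replicate 2 is far below them for Hspd1, Hsph1 and Hspa1b and far above them for Hspa8.

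The inducible HSP70 pair was dominated by Hspa1b in these files. Hspa1b had 89.1, 27.6 and 88.9 FPKM in control replicates 1, 2 and 3, and 86.9, 88.5 and 63.9 FPKM in PM2.5 replicates 1, 2 and 3. Hspa1a had 1.27, 1.04 and 1.31 FPKM in the controls and 2.34, 2.24 and 0.839 FPKM in the PM2.5 libraries. PM2.5 replicate 3 was the lowest PM2.5 library for both genes, and for Hspa1a it was below every control library. The 2 genes are near-identical: 63.8% of the 31-base stretches of Hspa1a also occur in Hspa1b, so the division of reads between them is uncertain, and their sum was 90.4, 28.7 and 90.3 FPKM in the controls and 89.3, 90.7 and 64.7 FPKM with PM2.5. In the sum, PM2.5 replicates 1 and 2 were at the level of control replicates 1 and 3. Without control replicate 2 the log2 fold change was -0.17 for Hspa1b (SE 0.17, adjusted p 0.658) and 0.24 for Hspa1a (SE 0.29, adjusted p 0.721), and in all 6 libraries it was 0.38 (SE 0.50) and 0.30 (SE 0.28), with an adjusted p of 0.875 for both.

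Hspa8, the constitutive cytosolic HSP70 that also strips clathrin from vesicles, was among the highest of all chaperone genes. It had 719, 2285 and 735 FPKM in control replicates 1, 2 and 3, and 719, 798 and 1214 FPKM in PM2.5 replicates 1, 2 and 3. Control replicate 2 and PM2.5 replicate 3 were the highest of their groups, and the groups overlapped with and without control replicate 2. Its log2 fold change was -0.26 (SE 0.56, adjusted p 0.901) in all 6 libraries and 0.29 (SE 0.25, adjusted p 0.608) without control replicate 2. Other genes, chiefly Gm15459, hold 44.8% of its 31-base stretches.

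Among the HSP110 exchange factors, Hspa4 had the steadiest FPKM over the libraries. Hspa4 had 84.8, 87.8 and 87.9 FPKM in the controls and 99.7, 105 and 106 FPKM in the PM2.5 libraries. Every PM2.5 library was above every control, control replicate 2 included. Hspa4 had a log2 fold change of 0.25 (SE 0.19, adjusted p 0.875) in all 6 libraries and 0.26 (SE 0.088, adjusted p 0.267) without control replicate 2. With total-read scaling of all 6 libraries the value of Hspa4 was 0.38, so its level controls depend on the scaling of control replicate 2. Hsph1 had 59.0, 12.6 and 59.0 FPKM in the controls and 58.5, 60.8 and 73.5 FPKM in the PM2.5 libraries. Only PM2.5 replicate 3 was clearly above control replicates 1 and 3, and control replicate 2 was far below all others. For Hsph1 the log2 fold change was 0.83 (SE 0.61) in all 6 libraries and 0.11 (SE 0.13) without control replicate 2, with an adjusted p of 0.875 and 0.700.

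HSP90 was represented by the highest transcript of the set in 4 of the 6 libraries. Hsp90ab1, the constitutive cytosolic HSP90, had 1011, 526 and 999.7 FPKM in the controls and 1082, 1079 and 1195 FPKM in the PM2.5 libraries. Every PM2.5 library was above every control library, with a log2 fold change of 0.46 (SE 0.38, adjusted p 0.875) in all 6 and 0.15 (SE 0.10, adjusted p 0.518) without control replicate 2. Hsp90aa1, the inducible cytosolic form, had 315, 175 and 322 FPKM in the controls and 253, 291 and 433 FPKM in the PM2.5 libraries. PM2.5 replicates 1 and 2 were below control replicates 1 and 3, and PM2.5 replicate 3 was above them. Its log2 fold change was 0.28 (SE 0.37, adjusted p 0.875) in all 6 libraries and -0.0066 (SE 0.25, adjusted p 0.992) without control replicate 2. Other genes, chiefly Gm12346, hold 51.5% of the 31-base stretches of Hsp90aa1. Hsp90b1, the form of the endoplasmic reticulum, had 208 to 218 FPKM in the controls and 214 to 286 FPKM in the PM2.5 libraries, with a log2 fold change of 0.18 in both fits (SE 0.24 and 0.15).

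The mitochondrial chaperonin gene Hspd1 had the largest log2 fold change of the 67 genes in both fits, and it was not called in either. Hspd1 spans chr1:55077835-55088243 on the minus strand and stands head to head with Hspe1 at chr1:55088132-55091307 on the plus strand, and exons of the pair overlap. Hspd1 had 145, 40.4 and 152 FPKM in control replicates 1, 2 and 3 (mean 113 ± 62.6 SD, n = 3), and 192, 197 and 249 FPKM in PM2.5 replicates 1, 2 and 3 (mean 213 ± 31.4 SD, n = 3). Every PM2.5 library was above every control. Hspd1 had a log2 fold change of 1.12 (SE 0.55, limma adjusted p 0.875) in all 6 libraries and 0.50 (SE 0.15, adjusted p 0.220) without control replicate 2, with an unadjusted 95% interval of 0.13 to 0.88 in the second. Hspe1 had 107, 154 and 112 FPKM in the controls and 118, 116 and 161 FPKM in the PM2.5 libraries. Its PM2.5 values were above control replicates 1 and 3, but 2 of the 3 were below control replicate 2. For Hspe1 the log2 fold change was 0.089 (SE 0.27, adjusted p 0.925) in all 6 libraries and 0.25 (SE 0.17, adjusted p 0.526) without control replicate 2. Other genes hold 53.1% of the 31-base stretches of Hspd1 and 30.5% of those of Hspe1, and reads in the shared exon cannot be assigned without strand.

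Hspa9, the HSP70 of the mitochondrial matrix that pulls proteins through the inner membrane, followed the same order of libraries as Hspd1. It had 127, 52.8 and 128 FPKM in the controls and 154, 159.5 and 193 FPKM in the PM2.5 libraries. No PM2.5 library overlapped the controls. Its log2 fold change was 0.82 (SE 0.40, adjusted p 0.875) in all 6 libraries and 0.40 (SE 0.13, adjusted p 0.260) without control replicate 2. Of 8 mitochondrial members, 0 were called. Without control replicate 2, 5 of the 8 (Hspd1, Hspe1, Hspa9, Dnaja3, and Dnajc11, which is tied to the cristae-organising complex) had higher values with no overlap, beside 17.7% of all genes. Over the 8 genes the median log2 fold change was 0.11 in all 6 libraries and 0.22 without control replicate 2. The other 3, Dnajc15, Dnajc19 and Dnajc30, had log2 fold changes of -0.014, 0.020 and -0.23 without control replicate 2. In all 6 libraries they had -0.19, -0.71 and -0.50.

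The small heat shock proteins had no gene called among 6 tested. Hspb1 (HSP25 in mouse), an inducible holdase tied to actin, had 94.9, 124 and 98.8 FPKM in the controls and 123, 119 and 95.1 FPKM in the PM2.5 libraries. PM2.5 replicates 1 and 2 were close to control replicate 2, and PM2.5 replicate 3 was close to control replicate 1. Its log2 fold change was 0.087 (SE 0.24, adjusted p 0.917) in all 6 libraries and 0.20 (SE 0.14, adjusted p 0.532) without control replicate 2, and 55.4% of its 31-base stretches recur elsewhere, mostly in Hsp25-ps1. Hspb8, the partner of Bag3 in clearing damaged filaments, had 91.1, 209.5 and 92.4 FPKM in the controls and 92.7, 97.5 and 90.1 FPKM in the PM2.5 libraries. All but control replicate 2 were nearly level, and the log2 fold change without it was 0.025 (SE 0.089, adjusted p 0.912), against -0.37 (SE 0.37, adjusted p 0.875) with it. Hspb2, which pairs with Hspb3 in muscle, had 3.81, 10.2 and 4.32 FPKM in the controls and 7.18, 5.34 and 4.91 FPKM with PM2.5. Without control replicate 2 its groups did not overlap and its log2 fold change was 0.41 (SE 0.17, adjusted p 0.334), and with it the value was 0.033 (SE 0.36, adjusted p 0.976). Cryab, on the opposite strand, shares 26.7% of the 31-base stretches of Hspb2. Hspb3 and Hspb9 were not tested.

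The J-domain proteins were the largest group, with 44 genes, of which 36 were tested and 0 called in either fit. Their median log2 fold change was 0.057 in all 6 libraries and 0.00097 without control replicate 2, where 18 of 36 had higher and 18 lower means in the PM2.5 group. Dnaja1, a cytosolic partner of HSP70 that farnesylation anchors to membranes, had 35.6, 28.8 and 35.0 FPKM in the controls and 43.9, 44.7 and 41.2 FPKM in the PM2.5 libraries. Every PM2.5 library was above every control, with a log2 fold change of 0.38 (SE 0.19, adjusted p 0.875) in all 6 and 0.29 (SE 0.088, adjusted p 0.235) without control replicate 2. Dnajb1, the classic HSP40 of the heat shock response, had 80.1, 105 and 84.1 FPKM in the controls and 92.5, 96.8 and 80.6 FPKM with PM2.5. These groups overlapped, and the log2 fold change of Dnajb1 was 0.0081 (SE 0.22, adjusted p 0.991) and 0.13 (SE 0.11, adjusted p 0.624). Dnajb4, another HSP40, had 7.76, 4.57 and 8.25 FPKM in the controls and 7.97, 8.23 and 7.98 FPKM with PM2.5, so only control replicate 2 stood off, and its log2 fold change was 0.24 (SE 0.25, adjusted p 0.875) and 0.0098 (SE 0.086, adjusted p 0.965). Dnajb6, a suppressor of aggregation, had 24.7, 15.2 and 24.9 FPKM in the controls and 20.3, 21.4 and 25.3 FPKM with PM2.5. Its groups overlapped, and the log2 fold change was 0.075 (SE 0.26, adjusted p 0.932) and -0.15 (SE 0.12, adjusted p 0.584). Of the 31-base stretches of Dnaja1 and Dnajb6, 22.6% and 22.7% also occur in other genes. Dnajb11, a co-chaperone of the endoplasmic reticulum, had 34.8, 35.2 and 34.8 FPKM in the controls and 40.5, 41.6 and 43.5 FPKM with PM2.5. Its 6 values fell into separate ranges, with a log2 fold change of 0.25 (SE 0.18, adjusted p 0.875) and 0.26 (SE 0.086, adjusted p 0.260). The other 7 members of the endoplasmic reticulum list had log2 fold changes between -0.41 and 0.18 without control replicate 2. In all 6 libraries theirs lay between -0.18 and 0.49.

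Among class C, Dnajc7 had the smallest p without control replicate 2. Dnajc7, whose repeats of the TPR fold link HSP70 and HSP90, had 15.8, 41.2 and 15.1 FPKM in the controls and 21.3, 20.7 and 20.2 FPKM with PM2.5. The PM2.5 libraries lay close together, above control replicates 1 and 3 and below control replicate 2. Dnajc7 had a log2 fold change of -0.052 (SE 0.40, adjusted p 0.968) in all 6 libraries and 0.40 (SE 0.084, adjusted p 0.128) without control replicate 2, and exons of Cnp and Nkiras2 overlap it on the opposite strand. Dnajc12, a co-chaperone of the aromatic amino acid hydroxylases, had 1.67, 0.930 and 1.85 FPKM in the controls and 1.10, 1.07 and 1.09 FPKM with PM2.5. Control replicate 2 was the lowest of the 6, and the other controls were above every PM2.5 library. Its log2 fold change was -0.23 (SE 0.22, adjusted p 0.875) in all 6 and -0.40 (SE 0.10, adjusted p 0.171) without control replicate 2. Dnajc4 had 7.17, 72.6 and 6.97 FPKM in the controls and 10.6, 10.6 and 8.14 FPKM with PM2.5. The PM2.5 values were above control replicates 1 and 3 and far below control replicate 2, with a log2 fold change of -0.65 (SE 0.88, adjusted p 0.875) in all 6 and 0.41 (SE 0.14, adjusted p 0.272) without it. Dnajc28 had 1.47, 1.45 and 1.15 FPKM in the controls and 1.15, 0.996 and 0.931 FPKM with PM2.5. Its highest PM2.5 value was just under its lowest control, and the log2 fold change was -0.22 (SE 0.18, adjusted p 0.875) and -0.19 (SE 0.12, adjusted p 0.512).

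Bag3, the HSF1-driven exchange factor that links HSP70 to autophagy, differed most between the PM2.5 libraries on log2(FPKM + 1). It had 25.4, 44.1 and 25.0 FPKM in the controls and 41.6, 44.2 and 20.2 FPKM in the PM2.5 libraries. PM2.5 replicates 1 and 2 and control replicate 2 were high, and PM2.5 replicate 3 was the lowest of all. Bag3 had a log2 fold change of 0.13 (SE 0.39, adjusted p 0.925) in all 6 libraries and 0.39 (SE 0.36, adjusted p 0.629) without control replicate 2. When PM2.5 replicate 3 was left out as well, the value of Bag3 was 0.74 (SE 0.050, adjusted p 5.95e-04), the smallest adjusted p of the 67 genes in that fit. That fit was added after seeing the data, had 2 libraries in each group and called 47.1% of all genes by limma. It left out the library in which Bag3 was lowest. Bag3 was 1.05 lower on log2(FPKM + 1) in PM2.5 replicate 3 than in the mean of replicates 1 and 2. It was the only 1 of 67 genes to differ there by more than 1, beside 4.47% of all genes in either direction and 3.51% below -1. That scale understates differences of low genes such as Hspa1a, at 2.34, 2.24 and 0.839 FPKM in PM2.5 replicates 1, 2 and 3. None of the 6 BAG genes was called in the fit of all 6 libraries or in that without control replicate 2.

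Of the 9 members known from male germ cells, 2 were tested, 4 had few reads and 3 had 0 reads in every library. Hspa2, the HSP70 of meiotic spermatocytes, had 5.52, 2.51 and 4.62 FPKM in the controls and 3.81, 4.58 and 2.89 FPKM with PM2.5. Control replicate 2 was the lowest, and the other controls were above every PM2.5 library. Hspa2 had a log2 fold change of -0.10 (SE 0.29, adjusted p 0.923) and -0.36 (SE 0.18, adjusted p 0.412) without control replicate 2. Hspa4l, an HSP110 abundant in the testis, had 35.0, 12.4 and 30.6 FPKM in the controls and 30.9, 33.4 and 39.4 FPKM with PM2.5, which overlap, with a log2 fold change of 0.51 (SE 0.41, adjusted p 0.875) and 0.069 (SE 0.14, adjusted p 0.834). The other 7 genes of this list of 9 were under the filter. Hspa1l had 6 to 19 reads per library, Hspb9 had 1 to 18, Dnajb13 had 5 to 19 and Dnajb3 had 0 to 5, while Dnajb8, Dnajc5b and Dnajc5g had 0. Hspa1l shares 71.7% of its 31-base stretches with Gm10501 on the opposite strand, so its few reads are uncertain.

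Hspa13, an HSP70 bound to microsomes, had the most negative log2 fold change without control replicate 2. It had 34.8, 5.71 and 34.3 FPKM in the controls and 21.7, 23.7 and 33.4 FPKM in the PM2.5 libraries. PM2.5 replicates 1 and 2 were clearly below control replicates 1 and 3, PM2.5 replicate 3 was next to them, and control replicate 2 was below all. For Hspa13 the log2 fold change was 0.40 (SE 0.69, adjusted p 0.884) in all 6 libraries and -0.41 (SE 0.20, adjusted p 0.399) without control replicate 2.

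**Figure D3:**
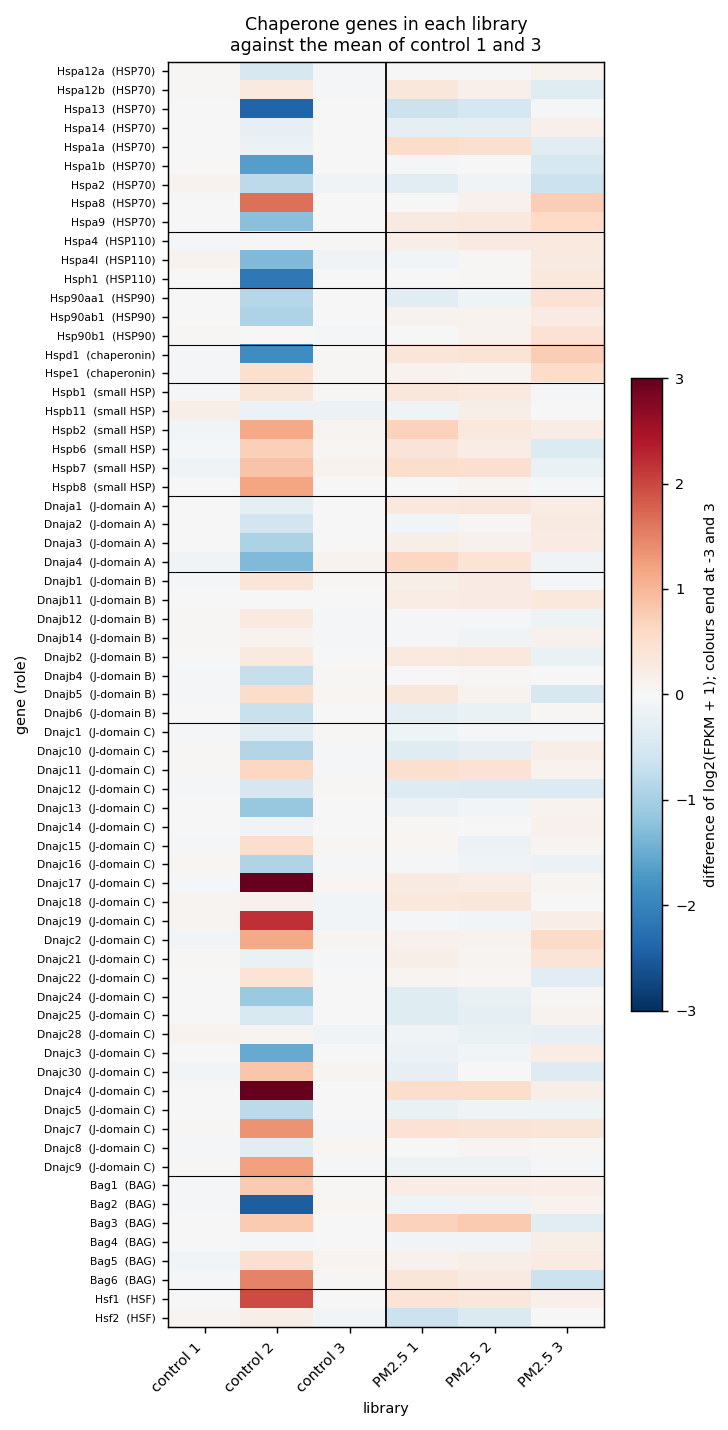
Difference of log2(FPKM + 1) of each of the 67 chaperone genes in each of the 6 libraries from the mean of control replicates 1 and 3, ordered by role. Colours end at -3 and 3, which Dnajc4 and Dnajc17 pass in control replicate 2. Control replicate 2 holds the strongest colours, and PM2.5 replicate 3 differs in shade from PM2.5 replicates 1 and 2 for many genes.

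Control replicate 2 moved the chaperone genes in both directions. In it 22 of the 67 genes differed by more than 1 on the log2 scale from the mean of control replicates 1 and 3, 11 above (20.6% of all genes) and 11 below (20.5%), 22 of 67 against 41.1% of all genes. The highest were Dnajc4 at 3.19 and Dnajc17 at 3.12, and the lowest were Bag2 at -2.47 and Hspa13 at -2.41. These differences rest on the FPKM scaling, which relative to total-read scaling raises control replicate 2. Bag2, an inhibitor of the CHIP ubiquitin ligase, had 2.07 FPKM there against 15.3 and 16.7 FPKM in control replicates 1 and 3, and 14.4 to 17.3 FPKM with PM2.5. The difference of control replicate 2 had a Spearman rho with transcript GC content of 0.369 over the 67 genes and 0.338 over 11735 genes. For PM2.5 replicate 3 against replicates 1 and 2 the rho was -0.77 and -0.714. Between PM2.5 replicates 1 and 2 and control replicates 1 and 3 it was 0.51 and 0.531. These correlations are across genes, which share the libraries and are no independent replicates, and the part of GC content or of the mitochondrial share of control replicate 2 in the group difference was not tested.

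**Figure D4:**
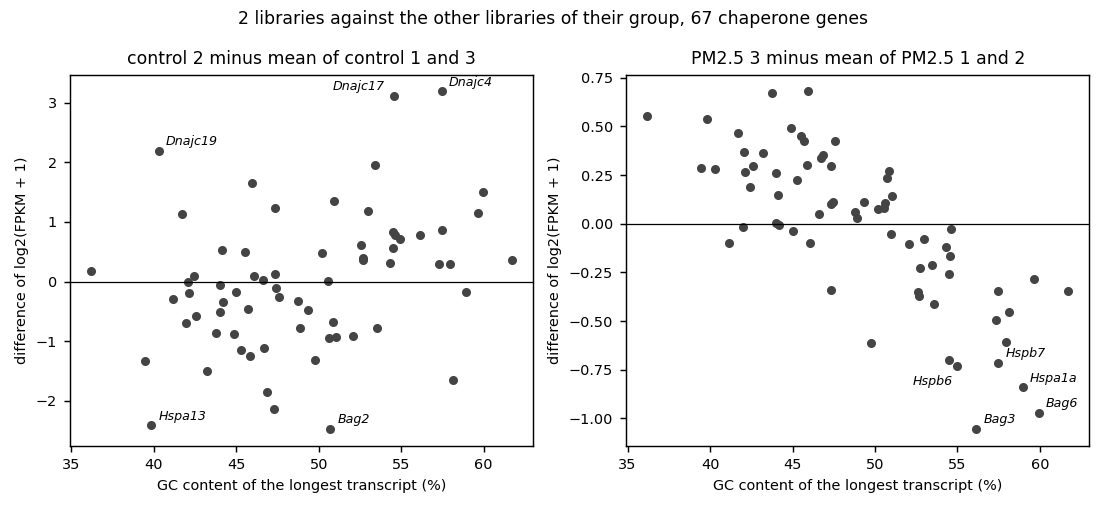
Difference of log2(FPKM + 1) against the GC content of the longest transcript (%) for the 67 chaperone genes, in control replicate 2 (left, rho 0.369) and PM2.5 replicate 3 (right, rho -0.77), each against the other libraries of its group. Each point is 1 gene, and the 5 with the largest absolute difference are named. In PM2.5 replicate 3 genes of high GC content lie below 0.

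Among the fits that left out these libraries or corrected for GC content, 2 called chaperone genes. In a fit added after seeing the data, without control replicate 2 and PM2.5 replicate 3, 31 of 67 genes were called by limma (46.3%, against 47.1% of all genes). Of these, 22 were higher (23.5% of all genes) and 9 lower (23.6%), with 2 libraries left in each group. With deposited values corrected for GC content and length, also chosen after seeing the data, 4 of 67 were called without control replicate 2, 5.97% against 7.01% of all genes, and all 4 were higher (3.47% of all genes). These were Dnajc7 (0.38, SE 0.054, adjusted p 0.0231), Hspa9 (0.44, SE 0.072, adjusted p 0.0321), Hspd1 (0.50, SE 0.086, adjusted p 0.0370) and Hsf1 (0.29, SE 0.055, adjusted p 0.0446). With the same correction 0 of 67 were called in all 6 libraries (0.145% of all genes). In that fit 2 of 67 had an unadjusted p under 0.05, beside 744 of 11735 genes. With the correction and a replicate block, 0 of 67 were called in either set of libraries. That fit called 0 of all genes in all 6 libraries.

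**Figure D5:**
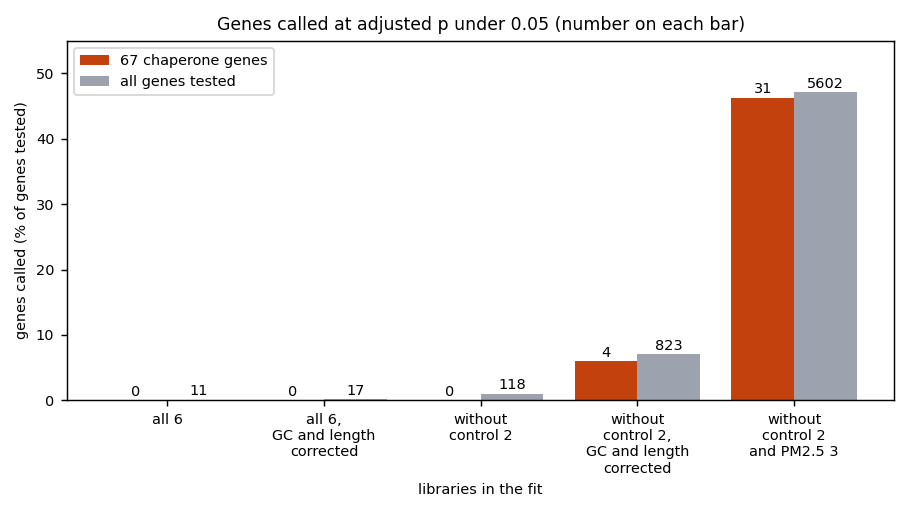
Percentage of the 67 chaperone genes and of all genes tested that were called at an adjusted p under 0.05, by the libraries and correction in the fit, with the number called on each bar. The share of chaperone genes follows that of all genes, from 0 in all 6 libraries to 31 of 67 with 4 libraries.

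The partners of HSP70 and HSP90 that the symbol rule leaves out were read from a separate list of 19 co-chaperones, all tested and 0 called in either fit. Their median log2 fold change was 0.058 in all 6 libraries and 0.031 without control replicate 2, and 5 had an unadjusted p under 0.05 in the second, beside 15.9% of all genes. The largest were Fkbp4 at 0.53 (SE 0.14, adjusted p 0.195), Stip1 at 0.52 (SE 0.12, adjusted p 0.162) and Ahsa1 at 0.50 (SE 0.15, adjusted p 0.222). The other 2 of the 5 were lower, Fkbp5 at -0.28 (SE 0.091, adjusted p 0.259) and Stub1 at -0.26 (SE 0.095, adjusted p 0.294). In all 6 libraries Fkbp4, Stip1, Ahsa1, Fkbp5 and Stub1 had 0.42, 0.23, 0.19, -0.29 and 0.16. The sign of Stub1 thus turned with control replicate 2. Fkbp4 and Fkbp5 are immunophilins of steroid receptor complexes, Stub1 is the CHIP ubiquitin ligase, Stip1 hands clients from HSP70 to HSP90, and Ahsa1 speeds the ATP cycle of HSP90. Stip1 had 146, 266 and 146 FPKM in the controls and 222, 223 and 184 FPKM with PM2.5, above control replicates 1 and 3 and below control replicate 2. In a list of 24 other chaperones (the TRiC ring, prefoldins and others), 0 were called in either fit, the median was -0.060 in all 6 libraries and 0.11 without control replicate 2, and 6 had an unadjusted p under 0.05 in the second (Cct7, Cryab, Hscb, Hyou1, Pfdn1 and Pfdn5, all higher), beside 15.9% of all genes. The prefoldin genes Pfdn1, Pfdn6 and Pfdn2 had the largest values there, 0.84, 0.79 and 0.76, with adjusted p of 0.270, 0.335 and 0.401. In all 6 libraries these 3 had -0.23, -0.81 and -0.69, so their signs turned with control replicate 2. Cct7, Hscb and Pfdn5 also turned, to -0.16, -0.22 and -0.64 in all 6 libraries. Cryab and Hyou1 kept their sign, at 0.033 and 1.05. Pfdn6, a subunit that passes nascent actin and tubulin to TRiC, had 19.9, 539 and 17.0 FPKM in the controls and 43.7, 37.0 and 21.1 FPKM with PM2.5, and control replicate 2 was the highest by far.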

How the data were processed

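Per the labels and the study's methods, the authors prepared libraries with the NEBNext Ultra kit, read 150 bp pairs on an Illumina Novaseq, mapped them with HISAT2 2.0.5 and counted them with featureCounts 1.5.0-p3. The deposited values are FPKM of each library, without pooling. The labels name mm9, and the annotation release is not given in the sources used here. Symbols, lengths and positions came from GENCODE M21 on GRCm38. FPKM multiplied by exon length gave whole reads (tolerance 0.02) for 97.0% of 25225 expressed genes. These reads served to measure depth and in 1 alternative.

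Genes with a mean of at least 1 FPKM over 6 libraries were tested, two-sided, with limma 3.58.1 (trend and robust, R 4.3.3, statmod 1.5.0) on log2(FPKM + 1), by group alone. A fold change on this scale understates that of low genes. Genes were called at a Benjamini-Hochberg adjusted p under 0.05 over all genes tested. The count test named in the design was not used, since the files hold FPKM. The rule for named genes took Hsf1, Hsf2, the heat-inducible and germ-cell members, the Hspa1a and Hspa1b pair, and the 5 largest increases and decreases without overlap, without control replicate 2. Other members with values in the text, such as Bag2, Dnajb11, Dnajc17 and Hsp90b1, were named after their values were seen. Members and lists were chosen with earlier results of these data known. Alternatives were other pseudocounts, filters, thresholds and scalings, voom, a replicate block, leaving out each library, and a spline correction for GC content and length. The fits were also run on simulated data, with changes larger than that of any chaperone gene. That run does not show how often smaller changes would be called. Sequences are from RefSeq (GRCm38.p6). Tables were handled with pandas 2.3.3 and figures drawn with matplotlib 3.10.9.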

Additional observations from a re-analysis of the deposited data

How the results depend on the processing

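In all 6 libraries, 0 chaperone genes were called under each alternative, except that 31 were called without control replicate 2 and PM2.5 replicate 3 (adjusted by limma over all genes). With control replicate 2 left out, 0 were called under each alternative but the GC and length correction, which called 4, and leaving out PM2.5 replicate 3. Leaving out each library gave 0 to 0 calls in the first fit and 0 to 31 in the second. Same-numbered libraries had correlations of deviations of -0.28, 0.18 and 0.25, and not every library correlated best with its own number. Deviations from a mean of 3 libraries are tied to each other, and control replicate 2 and PM2.5 replicate 3 deviated most. The correlations therefore cannot decide whether the numbers pair the samples, and the labels do not say. A replicate block called 0 members in both fits, and 0 and 92 genes against 11 and 118 without the block; with the GC correction of the second fit it called 0 members and 51 genes. Genes called in all 6 libraries were 0 with no filter, 0 at a mean of 5 FPKM, 2 at a pseudocount of 5, 6 with total-read scaling and 0 by voom, and without control replicate 2 they were 41 with no filter. Of 796 alternative values of 26 named genes, 45 had the opposite sign and 732 kept sign and side of the threshold. Dnajc7 in all 6 libraries was 0.079 with total-read scaling and 0.037 with quantile normalization, and Hspa8 was 0.35 with quantile normalization. In the fit without control replicate 2, Dnajb4 was -0.0038 and Hspb8 -0.0063 with the block. Hsp90aa1 there was 0.0062 with total-read scaling, 0.030 with quantile normalization, 0.055 with the block, 0.072 with the GC correction and 0.097 with the block and correction. Quantile normalization gave -0.050 for Hsp90ab1 and -0.055 for Hspb8. The GC correction gave -0.0025 for Hspb1 and -0.065 for Hspb8, and with the block -0.078 for Hspb8. Leaving out each of the 6 libraries in turn, the lowest and highest log2 fold changes were -0.064 and 0.48 for Bag3, -0.069 and 0.13 for Dnajb1, -1.19 and 0.41 for Dnajc4, -0.29 and 0.40 for Dnajc7, -0.68 and 0.30 for Hsf1, -0.0066 and 0.44 for Hsp90aa1, -0.41 and 0.80 for Hspa13, -0.17 and 0.66 for Hspa1b, -0.36 and 0.086 for Hspa2, -0.55 and 0.29 for Hspa8, -0.19 and 0.41 for Hspb2, -0.57 and 0.025 for Hspb8, and -0.061 and 0.25 for Hspe1. Leaving out each of the 5 libraries, they were -0.029 and 0.049 for Dnajb4, -0.23 and 0.16 for Hsp90aa1, -0.026 and 0.16 for Hspa4l, and -0.0063 and 0.051 for Hspb8. The cause was not tested. Chaperone genes left untested never passed 19 reads in a library.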
